A study of Mus musculus with 44 samples.

Results

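H3K27me3, a histone mark of silenced genes, was compared between late and early reprogramming hepatocytes of mice kept on the same diet. The comparison took the 5 H3K27me3 libraries of these cells, out of 44 libraries in the series, by the mark and stage on their labels. All cells came from livers of Rosa26-LSL-Cas9-EGFP mice, labelled wild type, in which the virus AAV8-TBG-Cre (5e11 genome copies each) had switched on EGFP in hepatocytes, since the TBG promoter is active in hepatocytes. From 1 week after the virus the mice ate 0.1% DDC, a toxin that injures bile ducts, for 8 to 9 weeks. Early cells (n = 2) were sorted as EGFP-positive and CD24-negative. Late cells (n = 3) were EGFP-positive and positive for both CD24 and EPCAM, surface markers of biliary cells. Diet, virus, strain and EGFP sort were thus shared, and the gates differed in CD24 and EPCAM. Other libraries served only as a reference: intermediate cells (EGFP-positive, CD24-positive, EPCAM-negative, n = 2) and biliary epithelial cells (BEC, EGFP-negative and EPCAM-positive, n = 2) from the same diet, and hepatocytes of mice with AAV8-TBG-Cre and no DDC (Hep, n = 2), purified on a gradient. How many animals stand behind a library is not stated, so all errors and p-values describe the spread between libraries.

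Polycomb repressive complex 2 deposits H3K27me3 on genes of other lineages and of development, and holds them silent without erasing them. H3K4me3 marks promoters in use or poised, and H3K27ac marks active promoters and enhancers. A promoter with both H3K27me3 and H3K4me3 is called bivalent when both sit on the same chromatin, which bulk libraries cannot tell from a mixture of cells. In the liver, hepatocytes under bile duct injury can take on biliary features, with keratins, tight junction proteins and integrins of the duct lining among the genes that turn on.

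The deposited data are peak lists from CUT&Tag, where Tn5 guided by an antibody cuts chromatin next to the mark. On the autosomes, X and Y, early lists held 6195 and 7610 peaks and late lists 11606, 8123 and 15086. To compare libraries, the 6195 highest-scoring peaks of each were kept, as many as the smallest list holds. The kept peaks covered 1.78 and 1.71 Mb in early and 0.463, 1.67 and 1.42 Mb in late libraries. Late 1 stood apart, with a median kept peak of 64 bp against 186 to 247 bp in the other 4 libraries. Read depth is unknown. H3K4me3 peaks at marker promoters fitted the gates in part. All 6 biliary markers had a peak in every late library and 2 and 3 of them in early libraries, while 4 and 6 of 6 hepatocyte markers had one in early and 4 in each late library. Epcam itself had 0 and 465 bp in early against 75, 668 and 626 bp in late libraries. Of 7 stellate and fibroblast markers 0 and 0 had H3K4me3 in early and 1, 2 and 2 in late libraries (summed 62 to 727 bp), and of 5 endothelial markers 0 and 0, then 0, 1 and 1 (up to 149 bp). Macrophage, lymphocyte and neutrophil markers had no H3K4me3 in the 5 libraries. Of the macrophage markers, Cd68 had H3K27ac in early 2 (146 bp), late 1 (90 bp) and late 2 (275 bp), and Csf1r in early 1 (282 bp). The part of other cells in the results was not tested.

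The promoters below are shown because H3K27me3 peaks lay inside the printed window itself, in 5 of them in 1 stage only and in Hey2 in both. They are the 250 bases before the start of each gene, from RefSeq on GRCm38.p6, the assembly of mm10. Each is printed 5′ to 3′ on the strand of the gene, with CG dinucleotides in capitals. Vcan, Hmga2 and Tet1 had H3K27me3 there in both early and in 0 late libraries. Cdk5r2 and Trp53i11 had it in all 3 late and in 0 early libraries, and Hey2 in all 5.
Vcan (chr13:89742513-89742762, minus strand): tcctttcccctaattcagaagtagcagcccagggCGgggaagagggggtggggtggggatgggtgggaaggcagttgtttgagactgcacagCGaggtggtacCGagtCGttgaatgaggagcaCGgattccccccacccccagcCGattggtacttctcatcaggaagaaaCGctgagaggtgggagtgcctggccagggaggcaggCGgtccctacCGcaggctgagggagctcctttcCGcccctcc
Hmga2 (chr10:120476470-120476719, minus strand): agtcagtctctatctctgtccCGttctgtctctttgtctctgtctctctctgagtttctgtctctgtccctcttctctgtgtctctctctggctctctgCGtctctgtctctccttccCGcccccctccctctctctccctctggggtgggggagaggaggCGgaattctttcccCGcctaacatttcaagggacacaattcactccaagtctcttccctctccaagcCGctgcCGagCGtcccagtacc
Tet1 (chr10:62887325-62887574, minus strand): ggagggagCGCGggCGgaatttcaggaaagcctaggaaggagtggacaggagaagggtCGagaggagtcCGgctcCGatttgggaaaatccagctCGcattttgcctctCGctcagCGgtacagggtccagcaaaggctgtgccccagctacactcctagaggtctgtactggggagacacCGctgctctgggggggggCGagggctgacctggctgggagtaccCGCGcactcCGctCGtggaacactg
Cdk5r2 (chr1:74854779-74855028, plus strand): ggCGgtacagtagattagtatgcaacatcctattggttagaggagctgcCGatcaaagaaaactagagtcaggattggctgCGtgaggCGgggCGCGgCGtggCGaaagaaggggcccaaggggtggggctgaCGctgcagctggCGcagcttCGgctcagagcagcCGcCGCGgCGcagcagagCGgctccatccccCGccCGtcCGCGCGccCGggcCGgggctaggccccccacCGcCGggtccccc
Trp53i11 (chr2:93187298-93187547, plus strand): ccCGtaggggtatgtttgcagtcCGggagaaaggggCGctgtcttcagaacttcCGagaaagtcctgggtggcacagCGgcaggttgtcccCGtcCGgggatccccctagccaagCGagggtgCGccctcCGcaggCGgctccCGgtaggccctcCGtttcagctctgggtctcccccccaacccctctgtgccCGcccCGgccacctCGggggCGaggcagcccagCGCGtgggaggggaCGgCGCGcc
Hey2 (chr10:30842784-30843033, minus strand): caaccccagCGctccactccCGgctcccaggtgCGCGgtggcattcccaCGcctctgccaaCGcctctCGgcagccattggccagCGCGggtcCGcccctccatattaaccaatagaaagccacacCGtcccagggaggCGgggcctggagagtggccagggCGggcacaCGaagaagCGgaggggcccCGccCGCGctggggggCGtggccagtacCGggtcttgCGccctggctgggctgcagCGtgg
These windows held 10 (Vcan), 8 (Hmga2), 15 (Tet1), 25 (Cdk5r2), 22 (Trp53i11) and 22 (Hey2) CG dinucleotides. Over all 17491 promoters with a sequence the median was 10.

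Kept peaks of the 5 libraries within 1000 bp of each other were joined into 18053 regions, and a region counted as marked in a library with at least 1 bp of peak. Few regions told the stages apart. In 760 regions, 4.21% of all, both early and no late library had a peak (early-only regions), and in 269 regions, 1.49% of all, all late and no early library had one (late-only regions). A further 547 regions (3.03%) were marked in all 5 libraries. Most regions were seen once, with 4429 in a single early and 7695 in a single late library. Of the regions of a library, 59.2 and 62.6% in early and 46.8, 59.8 and 60.8% in late were found in at least 1 other of the 5. Overlap of covered bases (Jaccard index) was 0.166 between the early libraries, 0.111 on average between late libraries and 0.0946 between stages. Its within-stage minus between-stage difference of 0.0301 did not pass (exact one-sided permutation test, p = 0.2, where 0.1 is the smallest that 2 against 3 libraries allow).

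The larger number of early-only regions did not hold in every setting. An early-only region needs a peak in 2 libraries and a late-only region in 3, so the counts are not like for like. With equal covered length in place of equal peak numbers, 199 regions were early-only and 306 late-only. With all listed peaks the counts were 585 and 535, and with peaks covering at least 50% of a region they were 572 and 34. Without late 1, the library of short peaks, they were 877 and 703, from 2 libraries against 2. Late-only regions were 26.1% of both kinds together with equal peak numbers, 47.8% with all listed peaks and 60.6% with equal covered length. Which stage had more regions of its own thus differed between settings.

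**Figure D1:**
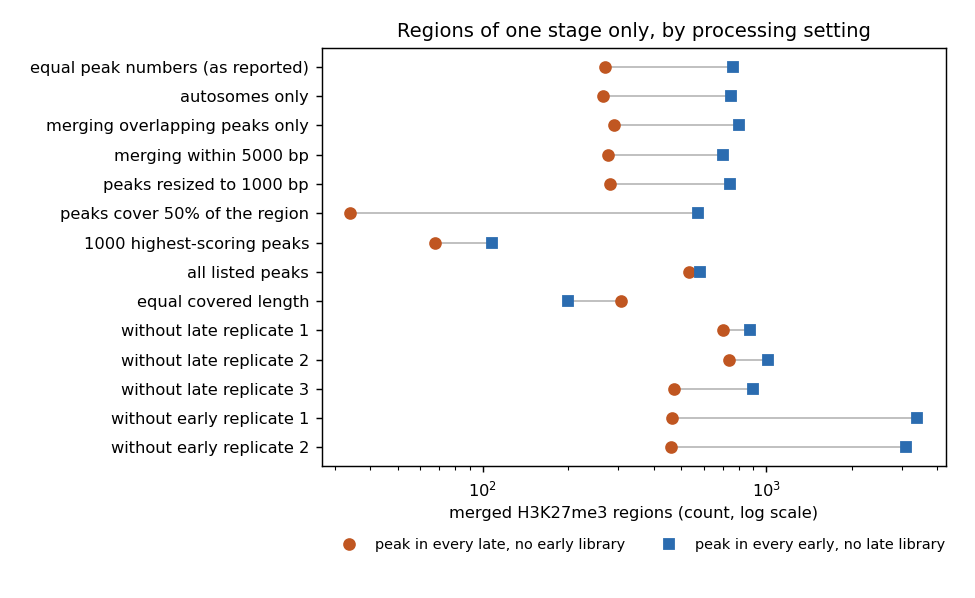
Number of merged H3K27me3 regions (x axis, log scale) with a peak in every late and no early library (circles) or in every early and no late library (squares), under each processing setting (y axis). Early-only regions were more frequent in all settings shown but equal covered length, where 199 stood against 306 late-only regions.

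Early-only regions lay at promoters more often than late-only ones. Of early-only regions 43.4% were within 2500 bp of a protein-coding promoter, against 32.0% of late-only regions, 55.6% of those marked in all 5 libraries and 21.4% of all regions. The longest-covered early-only regions lay at Sema6a, a semaphorin (1141 and 1151 bp in early 1 and 2), and Sdc3, a syndecan (754 and 878 bp). Thbd, Dclk1, Epor, Prss35, Vcan, Acss1, Ggta1 and Fermt1, described below, and 2 places outside genes completed the list of 12. The Sema6a region carried 326 and 711 bp of H3K4me3 in early and 687, 1378 and 1587 bp in late libraries. Among late-only regions, that in Chst5, a sulfotransferase gene, had 136, 947 and 1103 bp of H3K27me3 in late 1, 2 and 3. Lrrtm1, a synaptic adhesion gene, had 206, 668 and 1151 bp, and Clec14a, a gene known from endothelium, 56, 838 and 298 bp. Others lay at Dchs2, Dzip1, Nav3, Nrg1, Gabbr2, Cntn4 and Syndig1. In each of these late-only regions late 1 had the shortest covered length. The Chst5, Clec14a, Nav3, Nrg1 and Cntn4 regions had no H3K4me3 or H3K27ac peak in any of the 11 libraries of each mark.

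At promoters the same comparison was made on the bp covered by kept peaks within 2500 bp, for 21883 protein-coding genes. Early libraries had a peak at 1748 and 1791 promoters and late libraries at 1431, 1418 and 1531, which is 8.09 ± 0.139% (SD, n = 2) and 6.67 ± 0.283% (n = 3) of all. The groups did not overlap (exact two-sided permutation test, p = 0.2). This is the smallest value here, since the test doubles the one-sided p. By pattern, 316 promoters were early-only (1.44% of all), 92 late-only (0.42%) and 324 marked in all 5 libraries (1.48%).

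Covered length was then tested with limma on log2(bp + 100) at the 2109 promoters with a peak in at least 2 of the 5 libraries. In late cells 336 promoters had less (15.9% of those tested) and 11 had more H3K27me3 (0.522%) at an adjusted p under 0.05. Of the 336, 304 were early-only, and all 11 were late-only. In such promoters 1 stage has no peak at all, so its libraries show no spread and the test sees the spread of the other stage alone. They also passed the filter through the stage where they are high, so these counts are a description. With promoters of 1 library tested too, 51 were lower and 0 higher (limma, 453 and 89 at an unadjusted p under 0.05), and of regions 0 and 0 (1064 and 256). The median promoter was at −0.47 on the log2 scale. The calls rest on few libraries: limma called 0 promoters without early 1, early 2, late 2 or late 3 (15 to 89 higher and 44 to 538 lower at an unadjusted p under 0.05), and 327 lower and 133 higher without late 1. A lone early library is assumed there to vary like the late ones. Over the 18053 regions, 5929 were tested, 795 were lower (13.4%) and 21 higher (0.354%) in late cells, and 0 were called by limma without early 1, early 2 or late 3 (17 to 162 higher and 91 to 1051 lower unadjusted), against 818 and 622 without late 1 and 915 and 25 without late 2. With all listed peaks 0 regions and 0 promoters passed in limma (403 and 128 higher, 884 and 389 lower unadjusted), and with equal covered length 0 and 0 (267 and 107 higher, 345 and 173 lower).

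The promoters that changed most downward had long stretches of H3K27me3 in both early libraries. Tet1, which encodes an enzyme that oxidizes 5-methylcytosine, had 1490 and 1690 bp in early against 0, 189 and 0 bp in late libraries, a log2 difference of −3.57 ± 0.61 (SE, limma adjusted p = 0.0283). Its H3K4me3 was present throughout (947 and 1067 bp in early, 334, 1282 and 1131 bp in late), while H3K27ac went from 0 and 0 bp to 101, 253 and 398 bp. Thbd, the thrombomodulin gene, had 1409 and 619 bp against none in late libraries (limma adjusted p = 0.0242). Dclk1, a microtubule-associated kinase known from tuft cells, had 613 and 1240 bp against none (0.0236). Vcan, which encodes the matrix proteoglycan versican, had 845 and 837 bp against none (0.0236). That the stages do not overlap at these promoters was part of the rule that chose them, as was the size of the fall.

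The other 6 of the 10 promoters with the largest fall were also long-covered in both early libraries. Epor, the erythropoietin receptor, had 997 and 769 bp in early libraries, and Prss35, a protease-like gene, 789 and 953 bp. Kcnab1, a potassium channel subunit, had 940 and 1004 bp in early against 53, 0 and 0 bp in late libraries. Acss1, a mitochondrial acetyl-CoA synthetase, had 1012 and 665 bp, Ggta1, the alpha-galactosyltransferase, 928 and 708 bp. Fermt1, an integrin activator of epithelia, had 860 and 708 bp (limma adjusted p = 0.0236 for each of the 6). None of the late libraries had a peak at Epor, Prss35, Acss1, Ggta1 or Fermt1. At Fermt1 H3K27ac was 0 and 0 bp in early against 261, 679 and 927 bp in late libraries. At Epor H3K4me3 was 0 and 0 bp in early against 111, 807 and 366 bp in late libraries, with no H3K27ac.

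At the 10 promoters with the largest passing rise, mean covered length in late libraries was below that of the falling 10 in early libraries. Passing and the size of the change chose both sets, so this contrast only describes them. The late-only region in Chst5, listed by covered length, had 947 and 1103 bp in late 2 and 3. Gabbr2, a GABA receptor subunit, had 0 and 0 bp in early against 269, 311 and 857 bp in late libraries (limma adjusted p = 0.0483). It also carried H3K4me3 in early (193 and 359 bp) and in no late library. Gpr101, an orphan receptor on the X chromosome, had 174, 296 and 426 bp in late libraries (0.0389), and Rag1, the lymphocyte recombinase, 154, 346 and 374 bp (0.0443). Dmrt1, a sex-determination factor, had 178, 227 and 348 bp (0.0354), and Cdk5r2, a neuronal activator of Cdk5, 173, 201 and 394 bp (0.0489). Adamtsl5, Trp53i11, Hpca, Ngfr and Fam210b had 140 to 215 bp in each late library (limma adjusted p = 0.0324 to 0.0427). All early libraries were at 0 at these 10 promoters. Trp53i11 also differed in H3K4me3, with 0 and 0 bp in early against 300, 791 and 912 bp in late libraries. Its H3K27ac was 0 and 0 bp in early against 70, 217 and 186 bp in late libraries. Fam210b had H3K27me3 in both Hep libraries too (392 and 287 bp). With equal covered length, 8 of 17 early-only and 7 of 17 late-only promoters named in the text or its lists kept their pattern, and with the 1000 highest-scoring peaks 4 of 16 and 2 of 11.

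**Figure D2:**
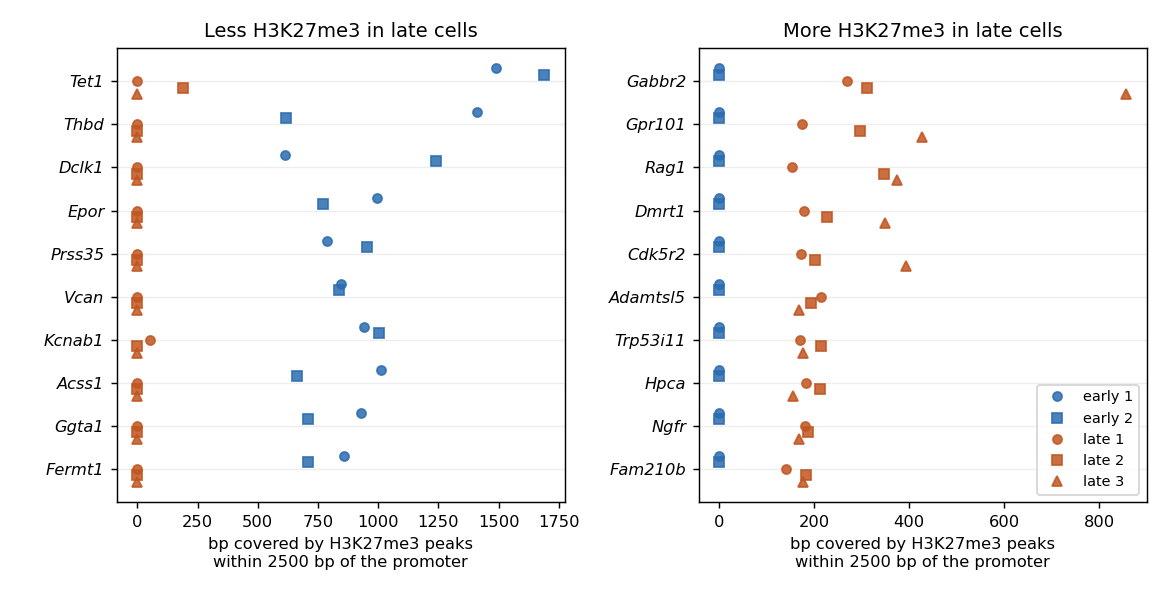
Base pairs covered by H3K27me3 peaks within 2500 bp of the promoter (x axis) in each library, for the 10 promoters with the largest fall (left) and the 10 with the largest rise (right) among those that passed limma with no overlap between stages. Early libraries are blue and late libraries orange, 1 point per library. Values on the left reach 1690 bp and those on the right 857 bp.

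Other marks did not enter the pattern of these promoters, except that H3K4me3 helped to place them. It placed the start of 2789 genes whose strand was not known, Thbd, Itgb4, Celsr1, Krt19 and Lgr5 among them. Where a gene of known strand had several starts, H3K4me3 also chose the one used. All listed peaks of the other marks were used, and their lists were shorter in early libraries: 19356 and 23313 peaks of H3K4me3 in early against 31112, 30412 and 26718 in late libraries, and 23511 and 35824 of H3K27ac against 51427, 51807 and 38040. Early-only promoters carried more active marks in late cells. An H3K4me3 peak was present at 32.4 ± 2.01% of them in early (n = 2), 79.0 ± 4.70% in intermediate (n = 2) and 78.5 ± 7.17% in late libraries (n = 3), with 22.0 ± 8.73% in Hep and 79.0 ± 1.12% in BEC. H3K27ac was present at 3.80 ± 0.448% in early, 35.8 ± 9.85% in intermediate, 45.5 ± 3.49% in late and 41.8 ± 1.79% in BEC libraries. All protein-coding promoters went from 52.0 ± 0.491% to 57.0 ± 1.69% for H3K4me3 and from 36.3 ± 3.35% to 49.2 ± 2.73% for H3K27ac between early and late libraries. No early library overlapped a late one in either mark at early-only promoters, and the same held over all protein-coding promoters. The difference at early-only promoters was tested below on regions. With 19356 peaks of H3K4me3 and 23511 of H3K27ac kept in each of the 5 libraries, an alternative added after the data were seen, early-only promoters went from 27.8 ± 4.48% to 61.1 ± 12.2% for H3K4me3 and from 3.16 ± 1.34% to 21.1 ± 5.15% for H3K27ac. All promoters then went from 51.1 ± 0.876% to 51.5 ± 2.59% and from 31.5 ± 3.36% to 34.8 ± 0.42%.

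Counted promoter by promoter, 86 of 316 early-only promoters (27.2%) had no H3K4me3 in either early and a peak in every late library, against 2.78% of all 21883. For H3K27ac the count was 78 (24.7%) against 5.85% of all. Both marks appeared at 30 early-only promoters (9.49%) against 0.58% of all. In that sense 0 of 316 lost either mark, where few of all promoters did (0.425% lost H3K4me3 and 0.416% H3K27ac). With equal peak numbers of the other marks these gains were fewer: 49 (15.5%) gained H3K4me3 against 1.29% of all, 24 (7.59%) gained H3K27ac against 2.51%, and 8 (2.53%) gained both against 0.155%. Then 1 lost H3K27ac (1.48% of all did) and 0 lost H3K4me3 (1.05% of all did). With only genes of known strand, the H3K4me3 gain stood at 67 of 243 (27.6%). H3K4me3 still chose among several starts there, so this check is not free of that mark. The 30 include the biliary integrin Itgb4 and the EMT regulator Zeb2. They also include, chosen after their values were seen, the metalloprotease inhibitor Timp3 (H3K27me3 467 and 321 bp in early, 0 in late libraries), the secreted glycoprotein Fstl1 (326 and 431 bp) and the planar polarity cadherin Celsr1 (334 and 261 bp).

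At late-only promoters the active marks differed less between the stages. H3K4me3 was found at 20.1 ± 0.769% of them in early cells and 33.7 ± 9.66% in late cells, and H3K27ac at 9.78 ± 1.54% and 10.1 ± 3.32%. Of 92, 1 lost H3K4me3 from both early to no late library (0.425% of all promoters did) and 6 gained it (2.78% of all), and 48 had none in any of the 5 (37.9% of all). For H3K27ac 2 were lost (0.416% of all) and 2 gained (5.85% of all). H3K27ac was absent from 75 of 92 in all 5 libraries, against 43.4% of all promoters. With equal peak numbers of the other marks, H3K4me3 was at 19.6 ± 1.54% of late-only promoters in early and 19.6 ± 2.17% in late libraries. H3K27ac was then at 8.15 ± 0.769% and 6.52 ± 1.09%. In that setting 3 lost H3K4me3 (1.05% of all did) and 4 gained it (1.29%). For H3K27ac 3 were lost (1.48% of all) and 1 gained (2.51%). Promoters marked by H3K27me3 in all 5 libraries had H3K4me3 in 11.1 ± 0% in early and 43.3 ± 6.33% in late libraries, with H3K27ac at 1.85 ± 0.436% and 8.33 ± 3.04%. Of these 324 promoters 40 (12.3%) gained H3K4me3 and 5 gained H3K27ac, or 13 and 3 with equal peak numbers of the other marks. Of kept H3K27me3 peaks, 3.18 and 4.00% in early and 9.56, 6.44 and 10.1% in late libraries overlapped an H3K4me3 peak of the library of the same stage and number (exact two-sided permutation test, p = 0.2, the smallest that the doubled p allows).

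**Figure D3:**
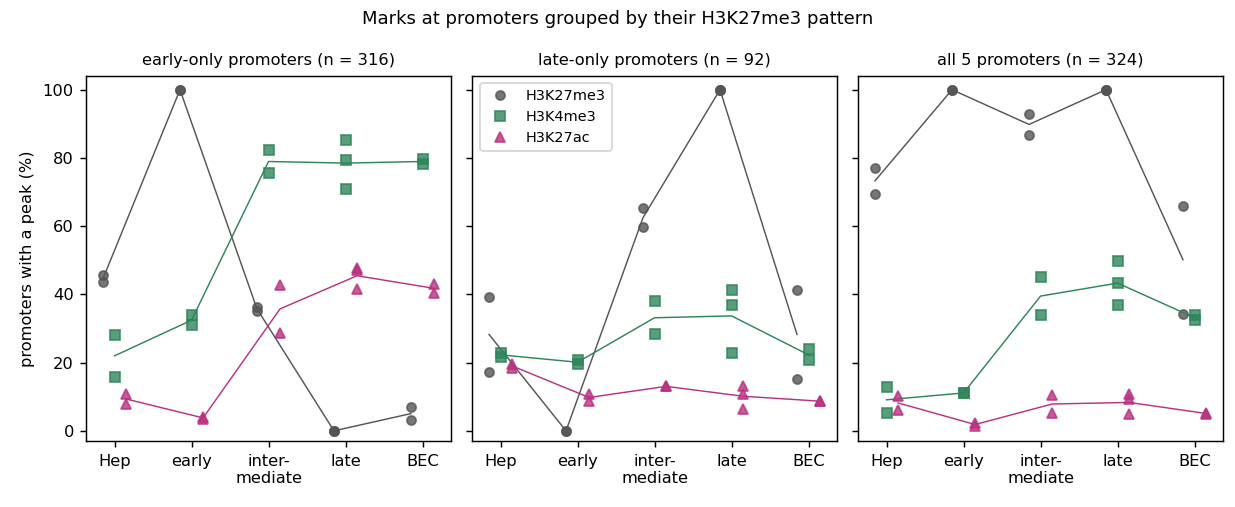
Percent of promoters with a peak within 2500 bp (y axis) in each library of 5 stages (x axis) for H3K27me3 (circles), H3K4me3 (squares) and H3K27ac (triangles), with lines through stage means. Panels hold the 316 early-only, 92 late-only and 324 always marked promoters, where the H3K27me3 values of early and late libraries are set by the grouping. At early-only promoters H3K4me3 went from 32.4% in early to 78.5% in late libraries.

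The trend was tested over the regions, as the share with a peak across the order early, intermediate, late in 7 libraries, for 3 marks and both kinds of region (exact two-sided permutation test, adjusted over 6 tests). It counts arrangements at least as extreme in either direction and does not double the p, unlike the tests of early against late above. The p-values of the 2 kinds of test are therefore not on 1 scale. H3K27ac at early-only regions rose by 8.78 points per stage, from 1.51 ± 0.465% through 15.1 ± 4.75% to 19.6 ± 1.05% (exact adjusted p = 0.0286, from the smallest p of 0.00476 that 7 libraries allow). All regions stood at 2.40 ± 0.392%, 5.43 ± 1.28% and 6.14 ± 0.664%. With equal numbers of H3K27ac peaks per library the rise was 4.30 points per stage, from 0.921 to 9.47% (exact adjusted p = 0.0286). H3K4me3 at early-only regions was 12.8 ± 1.67%, 37.3 ± 4.19% and 37.3 ± 5.43%, and missed the threshold (11.5 points per stage, exact adjusted p = 0.0571). At late-only regions H3K4me3 (6.88, 11.5 and 14.0%) and H3K4me1, the enhancer mark (7.62, 16.4 and 25.9%), did not pass either (exact adjusted p = 0.0571 for both). H3K27ac there was 3.72, 4.46 and 4.09% (exact adjusted p = 0.771). Taken as a difference from all regions, an alternative added after the data were seen, H3K27ac at late-only regions fell by 1.65 points per stage (exact adjusted p = 0.0143). In the same alternative H3K4me1 there rose (5.66 points per stage, exact adjusted p = 0.0476). The slope of H3K4me3 was 0.294 (exact adjusted p = 0.676), and with equal peak numbers of the other mark none of the 3 passed (0.152 to 0.333).

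H3K27me3 itself was read in the libraries not used to define the regions. Of late-only regions 62.1 and 53.5% had an H3K27me3 peak in intermediate 1 and 2, against 25.9 and 23.2% of early-only regions and 19.5 ± 2.68% of all regions. Both intermediate libraries thus held more of the late-only than of the early-only regions. In Hep libraries 33.4 and 26.2% of early-only and 13.8 and 35.3% of late-only regions were marked, which do not separate. In BEC libraries 7.89 and 2.76% of early-only and 35.7 and 13.4% of late-only regions were marked, next to 8.89 ± 5.21% of all regions. Regions marked in all 5 libraries were marked in 89.7 ± 4.52% in intermediate, 68.7 ± 8.01% in Hep and 47.3 ± 21.5% in BEC libraries. Chosen without late 1, late-only regions were marked in 37.9 ± 7.95% and early-only regions in 27.9 ± 1.45% in intermediate libraries.

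Biliary genes were among those with less H3K27me3 in late cells. Of 32 biliary markers 7 and 6 had an H3K27me3 peak in early and 2, 3 and 1 in late libraries, which is 20.3 ± 2.21% and 6.25 ± 3.13%. The groups did not overlap, and the share over all protein-coding promoters is given above. Hep libraries had 9 and 10, intermediate 4 and 3 and BEC 1 and 0. Over all protein-coding promoters the shares there were 7.44 and 9.35%, 7.79 and 6.48%, and 4.52 and 2.17%, with the shortest list in BEC 2. Of the 6 members tested, 3 fell, 0 rose and 3 did not pass (15.9% of all tested promoters fell). The median log2 difference of the 6 was −1.54 against −0.47 over all tested promoters. Of the 3 that fell, Cldn7 and Itgb4 passed the filter through early peaks alone, so the count and the median are a description. Over the same stages H3K4me3 at the 32 promoters went from 62.5 ± 4.42% to 91.7 ± 6.51%.

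Krt19, the keratin that marks bile duct cells (chromosome 11, 100140810 to 100145926, mm10), had 348 and 561 bp of H3K27me3 in early and 88, 0 and 0 bp in late libraries (log2 −2.14 ± 0.46, limma adjusted p = 0.0429). Its H3K4me3 was 0 and 0 bp in early against 273, 509 and 619 bp in late libraries. Neither Hep nor BEC libraries had H3K27me3 at Krt19. Cldn7, a tight junction claudin, had 269 and 538 bp in early and none in late libraries (limma adjusted p = 0.0283), with H3K4me3 in all 5 (741 and 865 bp, then 532, 1310 and 1018 bp). Itgb4, the integrin of hemidesmosomes, had 232 and 205 bp against none (0.0283). Its H3K4me3 went from 0 and 0 bp to 162, 477 and 752 bp and its H3K27ac from 0 and 0 bp to 179, 180 and 211 bp.

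Other biliary promoters varied within a stage. Sctr, the secretin receptor, had 810 and 196 bp in early against 0, 654 and 0 bp in late libraries, and St14, the protease matriptase, 229 and 0 bp and 0, 304 and 0 bp. These 2 did not pass (limma adjusted p = 0.529 and 0.938). The sort marker Cd24a had 370 bp in early 1 and none in the other 4 libraries. Klf5, an epithelial transcription factor of the biliary list, had 488 and 311 bp in early against 127, 0 and 0 bp in late libraries (limma adjusted p = 0.0894).

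Signalling lists held few marked members. Of 18 TGF-beta and EMT genes 1 and 3 were marked in early and 1 in each late library, which overlap. Zeb2, an EMT regulator, had 365 and 195 bp in early and none in late libraries (limma adjusted p = 0.0292), while its H3K4me3 went from 0 and 0 bp to 352, 739 and 586 bp. Twist1, the other member tested, had 0 and 208 bp in early against 0, 258 and 129 bp in late libraries and did not pass. Of 16 Notch pathway promoters 2 and 4 were marked in early and 2, 2 and 1 in late libraries. Hey2, a Notch target repressor, was marked in all 11 H3K27me3 libraries, with 520 and 511 bp in early against 351, 614 and 488 bp in late. Of 23 YAP targets 3 and 2 were marked in early and 2, 1 and 3 in late libraries, with the growth factor gene Ereg marked in all 5 (524 and 436 bp, then 238, 315 and 364 bp). In the Notch list 0 of 3 and in the YAP list 0 of 2 tested members passed (limma), with 0 at an unadjusted p under 0.05. Of all tested promoters 15.9% fell and 0.522% rose.

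Genes of development had H3K27me3 in both stages. Of 60 developmental Polycomb targets 12 and 15 were marked in early and 12, 13 and 27 in late libraries, and of 39 Hox genes 5 and 9 against 8, 11 and 14. The groups overlap in both lists, and late 3 had the highest number in each. Bmp4, a morphogen, had 646 and 631 bp in early and none in late libraries, and Wnt10b, a Wnt ligand, 501 and 749 bp against none (limma adjusted p = 0.0236 for both). Pitx1 had 0 and 0 bp in early against 136, 442 and 311 bp in late libraries (0.063), and Gata4 0 and 0 bp and 118, 422 and 143 bp (0.128), neither passing. In each of these 2 genes both ends were counted, since the end that starts the gene was not known. Of 23 developmental targets tested 2 fell, 0 rose and 21 did not pass, where 15.9% of all tested promoters fell. Of 13 Hox genes tested 0 passed (limma, 0 at an unadjusted p under 0.05).

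Hepatocyte genes had no kept H3K27me3 peak in either stage. Of 30 hepatocyte function genes, 20 bile acid and xenobiotic genes and 14 hepatocyte transcription factors, 0 had one in any of the 5 libraries. With all listed peaks, where late lists are longer, late minus early was 2.22 points for the function genes and 2.38 points for the transcription factors. Over the same libraries the H3K4me3 share, not tested here, was 95.0 ± 7.07% in early and 61.1 ± 10.7% in late for the function genes, and 77.5 ± 3.54% and 41.7 ± 11.5% for the bile acid genes. It was 92.9% in both stages for the transcription factors. Housekeeping promoters had 0 and 0 peaks in early and 1, 0 and 0 in late libraries. Most developmental targets had no peak either, so the lack of a peak is no proof of an unmarked promoter.

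Some genes with hepatic roles outside these lists were late-only, and were chosen after their values were seen. Urad, of urate breakdown, had 0 and 0 bp in early against 85, 536 and 480 bp of H3K27me3 in late libraries, while H3K4me3 was 1136 and 1214 bp in early against 167, 123 and 115 bp in late. Slc27a2, a fatty acid transport protein, had 0 and 0 bp and 68, 182 and 465 bp, and Pltp, the phospholipid transfer protein, 0 and 0 bp and 94, 260 and 148 bp. None of the 3 passed (limma adjusted p = 0.101 to 0.2). H3K4me3 overlapped between the stages at Slc27a2 (642 and 1506 bp, then 209, 577 and 881 bp) and Pltp (243 and 0 bp, then 154, 313 and 238 bp). From the Wnt and pericentral list, the Wnt pathway gene Lgr5 had 0 and 0 bp in early against 180, 270 and 523 bp in late libraries (0.0504). Its H3K4me3 was 771 and 1107 bp in early against 0, 194 and 120 bp in late libraries. Lgr5 also had H3K27me3 in both Hep libraries (203 and 255 bp).

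Some promoters of other cell types carried H3K27me3 in both stages. Of 12 endothelial genes 0 and 1 were marked in early and 2, 3 and 4 in late libraries, and the groups did not overlap. Erg, an endothelial transcription factor, had 0 and 0 bp in early against 148, 184 and 430 bp in late libraries (limma adjusted p = 0.0756), with no H3K4me3 in any of the 5. Of 12 stellate and fibroblast genes 4 and 3 were marked in early and 5, 3 and 6 in late libraries. Lrat, of retinoid storage, was marked in all 5 (807 and 996 bp, then 148, 859 and 757 bp), and Col1a2 had 356 and 0 bp in early against 118, 656 and 915 bp in late libraries. Of 3 endothelial and 5 stellate genes tested 0 passed (limma, 1 and 0 at an unadjusted p under 0.05), where 15.9% of all tested promoters fell and 0.522% rose.

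**Figure D4:**
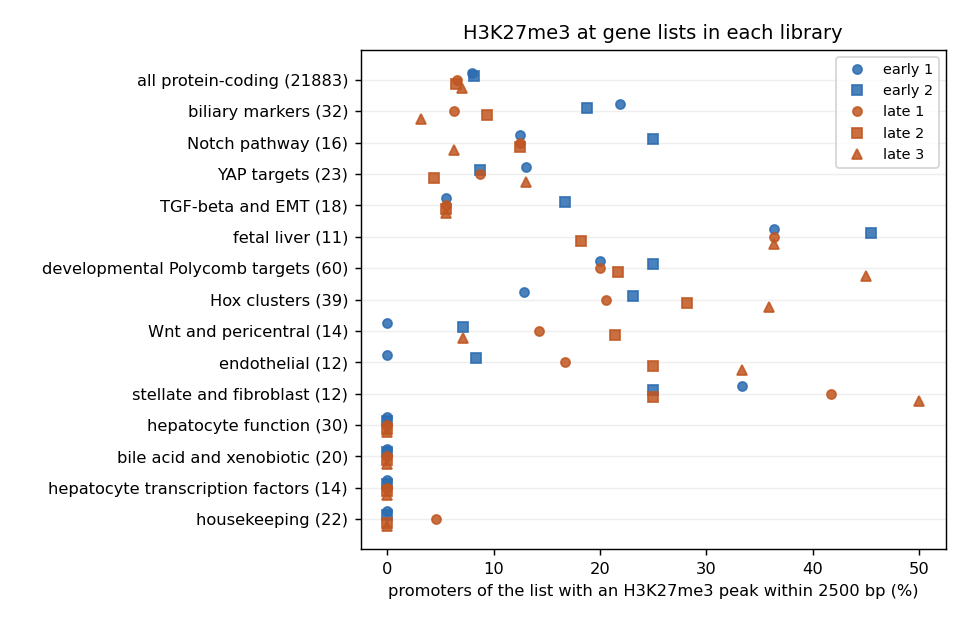
Percent of the promoters of each list with an H3K27me3 peak within 2500 bp (x axis) in each early (blue) and late (orange) library, with the number of genes in brackets. Biliary markers stood at 20.3% on average in early and 6.25% in late libraries, and 3 hepatocyte lists at 0 in all 5.

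Among the 324 promoters marked in all 5 libraries, those with the longest covered length are described here. Col14a1, a fibril-associated collagen, had 1399 and 1564 bp in early against 72, 935 and 461 bp in late libraries. Meox2, a mesodermal homeobox gene, had 1403 and 1011 bp and 221, 779 and 955 bp, and Cldn5, the endothelial claudin, 991 and 1124 bp and 154, 1211 and 518 bp. Late 1 was the lowest library at each of them. Kcnj3, Nwd2, Samd11, H2-M5, Grem1, Gucy1b1 and Ptger3 completed the 10. H3K27ac was at 0 in the 5 libraries at all 10.

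Early-only promoters held more CG dinucleotides than the other sets. Over the 250 bases before the start, the median count of CG was 15 in 243 early-only promoters with a sequence, 12 in 70 late-only, 11 in 253 always marked and 10 in all 17491. The observed over expected CG ratio exceeded 0.6 in 52.3% of early-only, 40.0% of late-only, 41.1% of always marked and 45.8% of all promoters. The ratio is the count of CG times the length over the product of the counts of C and G.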

How the data were processed

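Peak lists of 44 libraries were used, of which the 11 of H3K27me3 carry the comparison. Per the submitters' processing notes Bowtie2, Picard, deepTools and MACS2 were used on mm10. Their versions and settings, and any peak filter, are not stated there. The score of each peak, as deposited by the authors, has no stated definition and only ranked peaks within a list. Starts and ends were used as deposited. Of 48725 peaks in the 5 lists, 105 (0.215%) lay on other sequences than the 19 autosomes, X and Y and were dropped. Depth is unknown, so no counting interval is given.

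The 6195 highest-scoring peaks per library were kept, or all peaks where a reference list held fewer. Those of the 5 libraries were joined within 1000 bp, and kept peaks were counted at protein-coding promoters (2500 bp on each side). Of 21883 promoters, 17491 were placed by RefSeq strand, 2789 at the end with more H3K4me3 and 1603 at both ends. Where RefSeq gave several starts for a gene, that with the most H3K4me3 over all libraries of the mark was taken. Covered bp were fitted with limma 3.58.1 (R 4.3.3, lmFit and eBayes, pseudocount 100 bp, Benjamini-Hochberg). Features with a peak in 1 library only were not tested. The fit and the interval routines were tested on simulated data. Python 3.11.15 ran exact permutation tests.

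Genes named are the 12 longest-covered regions per kind, the 10 largest passing promoter changes per direction without overlap, up to 6 list members marked in 2 or more libraries and the 10 most covered always marked promoters, without Gm and Rik symbols. Members and the 21 lists (430 entries) were chosen with earlier results of these data known. Replicate numbers come from the labels. Same-numbered early and late libraries correlated at −0.103 and −0.000845 in their deviations from the stage means. The deviations of 2 early libraries mirror each other, so this check cannot decide whether the numbers pair the libraries. Alternatives tried are in the closing section. A result at 1 named promoter is not reported here.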

Additional observations from a re-analysis of the deposited data

How the results depend on the processing

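Of 231 alternative values over the comparisons, 148 stayed on their side of the threshold, within 1.5 times of the count or within the replicate spread, 5 of them with the opposite sign. Counts of single-stage regions and limma calls moved with most choices. Late-only regions numbered 535 with all listed peaks, 68 with the 1000 highest-scoring peaks, 34 where peaks had to cover 50% of the region and 460 to 737 without 1 library. Early-only regions numbered 199 with equal covered length, 108 with the 1000 highest-scoring peaks and 877 to 3408 without 1 library. In limma, regions higher and lower in late cells were 0 and 0 (267 and 345 at an unadjusted p under 0.05) with equal covered length, 0 and 0 (403 and 884) with all listed peaks and 0 and 0 (256 and 1064) where regions of 1 library were tested too. Promoters were 0 and 0 (107 and 173) with equal covered length, 0 and 0 (128 and 389) with all listed peaks and 0 and 51 where promoters of 1 library were tested too. With a pseudocount of 10 bp, 214 regions and 74 promoters were higher, and with 1000 bp 0 and 0 were higher (limma, 119 and 31 unadjusted) and 82 and 93 lower. Quantile normalization gave 107 regions higher and 453 lower, and 49 promoters higher and 175 lower. Peaks resized to 1000 bp gave 288 regions and 98 promoters higher. The 1000 highest-scoring peaks gave 4 regions higher and 108 lower, and 7 promoters higher and 74 lower. Regions higher were 48 with 7 and 78 with 11 libraries in the fit, and 46 with only overlapping peaks merged.

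Without 1 library, regions higher ranged from 0 to 622 and lower from 0 to 915, and promoters higher from 0 to 133 and lower from 0 to 327. In limma without early 1 the unadjusted counts were 37 and 111 regions and 21 and 78 promoters, and without late 3 162 and 1051 regions and 55 and 444 promoters. With the replicate block, limma called 0 and 0 regions (10 and 685 unadjusted) and 0 and 0 promoters (10 and 383). Whether the numbers pair the libraries is not known.

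With equal numbers of peaks of the other mark, 15.5% of early-only promoters gained H3K4me3 and 7.59% H3K27ac. The rise of H3K27ac at early-only regions ranged from 8.01 to 9.31 points per stage without 1 library, where no exact adjusted p passed, with fewer arrangements to draw from. As a difference from all regions, H3K27ac at late-only regions reversed to −1.65 and H3K4me1 there passed at 5.66 points per stage. With all listed peaks, the intermediate share was 68.2% of late-only and 38.5% of early-only regions, and the Hep share 42.7% of early-only regions. Late minus early list shares were then 25.8 points for developmental targets, 20.9 for Hox clusters and −10.4 for biliary markers. They were 2.22 for hepatocyte function, 2.38 for hepatocyte and 2.56 for biliary transcription factors. Late lists held more peaks than early ones in that setting. The change over all promoters was not computed there, so these values have no reference. Regions chosen without late 1 gave intermediate shares of 37.9% (late-only) and 27.9% (early-only). The cause of these shifts was not tested.

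Unknown read depth, short lists and 2 against 3 libraries limit every comparison, and a missing peak is not a missing mark.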

Other observations

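Fetal liver genes carried H3K27me3 in both stages. Of 11 promoters 4 and 5 were marked in early and 4, 2 and 4 in late libraries, which overlap. Hmga2, a chromatin protein of fetal and stem cells, had 256 and 205 bp in early and none in late libraries (limma adjusted p = 0.0283), while H3K4me3 was 193 and 0 bp in early against 202, 439 and 1015 bp in late. Igf2bp1, an RNA-binding protein, had 301 and 0 bp in early cells and 58, 0 and 0 bp in late libraries, and Dlk1 0 and 182 bp and 121, 0 and 262 bp. The latter 2 did not pass (limma adjusted p = 0.576 and 0.885).

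Of 33 genes of the Polycomb machinery 1 and 4 were marked in early and 2, 0 and 1 in late libraries. Of 9 cell cycle inhibitors 0 and 2 were marked in early and 0 in each late library, and of 19 cell cycle genes 0 in all 5. Of 13 biliary transcription factors 1 and 1 were marked in early and 1, 1 and 0 in late libraries. Of 14 Wnt and pericentral genes 0 and 1 were marked in early and 2, 3 and 1 in late libraries, which overlap. Of 11 macrophage genes 0 and 0, then 0, 1 and 0 were marked, of 11 lymphocyte genes 0 and 0, then 1, 1 and 0, and of 10 neutrophil genes 1 and 0, then 0, 0 and 1. Chromosome X held 1.68 and 1.65% of kept peaks in early and 1.40, 1.42 and 1.69% in late libraries (exact two-sided permutation test, p = 0.6). The length covered by kept peaks differed by −0.566 Mb, late minus early, between the stage means, against a late SD of 0.636 Mb (exact two-sided permutation test, p = 0.2). It was −0.206 Mb without late 1 and 0.0141 Mb with all listed peaks.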
